A study of Homo sapiens with 18 samples.

Results

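The 9 genes described here are the parts of the MHC class I presentation pathway with the symbols HLA-B, HLA-C, HLA-E, HLA-F, B2M, TAP1, TAP2, PSMB8 and PSMB9. They were found by gene symbol in the deposited table of estimated counts, where they are 9 of 62749 genes, and all 9 passed the filter on low counts that left 19252 genes for testing. The samples were 18 RNA-seq libraries of poly(A)-selected RNA from MDA-MB-231 cells, an established line of triple-negative breast cancer with mesenchymal features. They fall into 6 groups of 3 libraries. The first is the unedited wild type (WT). The second is a knockout (KO) of IMPDH2, an enzyme that catalyses the rate-limiting step of guanine nucleotide synthesis. The third is the same knockout grown with 400 µM guanosine, a nucleoside from which cells can make guanine nucleotides without that enzyme. The other groups are the knockout given back IMPDH2 without a stated location (KO with IMPDH2), a nuclear form of IMPDH2 (KO with nuclear IMPDH2) or a cytosolic form (KO with cytosolic IMPDH2). All cells grew in the same serum-containing medium, and only the third group received guanosine. The labels do not say whether the KO was 1 clone or a pool, so the loss of IMPDH2 and the derivation of the KO line cannot be told apart in a comparison with WT. Nothing in them tells whether replicates are independent cultures, so every p-value measures only the spread between these libraries, which may be technical. The cell line field of the labels counts upward from one library to the next, whereas the description of cell culture gives MDA-MB-231 alone, and that name is used here.

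MHC class I molecules carry short peptides from inside the cell to its surface, where CD8+ T cells and natural killer cells inspect them. The proteasome cuts proteins into peptides, and PSMB8 and PSMB9 are catalytic subunits that replace their constitutive counterparts PSMB5 and PSMB6 in the immunoproteasome. TAP1 and TAP2 form the transporter that moves peptides into the endoplasmic reticulum, and there a heavy chain encoded by an HLA gene folds with the light chain beta-2-microglobulin (B2M) around a peptide. Interferons and NF-kB induce most of these genes, and tumour cells that lose the pathway can escape CD8+ T cells.

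The promoters are shown because the 9 genes are often described as 1 co-regulated set, and the results below show that they did not move as 1. RefSeq (GRCh38.p14) held a promoter for 8 of the genes, all but HLA-E, and for each gene the 250 bases before its first listed start were searched on both strands. The stretches run 5′ to 3′ on the gene's own strand, and capitals mark the motifs that were matched. Only exact matches were marked and counted, so an unmarked stretch may still hold a variant of a motif. In HLA-B and HLA-C the capitals are the NF-kB form GGGNNTTCC, the Y box letters CCAAT, read on either strand, and TGACG, the core letters of the cyclic AMP response element (CRE). In B2M they are the core of the interferon-stimulated response element (ISRE), which is GAAA followed by any 2 bases and GAAA again, and the CRE core letters. The HLA-B stretch lies at chr6:31357230-31357379 on the minus strand, the HLA-C stretch at chr6:31272143-31272292 on the minus strand and the B2M stretch at chr15:44711317-44711466 on the plus strand, in each case from 200 to 51 bases before the start.
HLA-B: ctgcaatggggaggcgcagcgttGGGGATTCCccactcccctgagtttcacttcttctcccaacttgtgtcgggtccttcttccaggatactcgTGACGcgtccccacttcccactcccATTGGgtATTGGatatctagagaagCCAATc
HLA-C: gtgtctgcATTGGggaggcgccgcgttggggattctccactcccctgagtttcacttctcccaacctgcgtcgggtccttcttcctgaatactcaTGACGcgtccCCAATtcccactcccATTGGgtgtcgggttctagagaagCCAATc
B2M: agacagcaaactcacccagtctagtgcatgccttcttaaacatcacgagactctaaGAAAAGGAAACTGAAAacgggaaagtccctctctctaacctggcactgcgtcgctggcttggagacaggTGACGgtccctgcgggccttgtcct

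The ISRE core was matched in 4 of the 8 promoters, against 3.02% of all 35116 RefSeq promoters of the same length. The 4 were those of B2M, HLA-F, TAP1 and TAP2, which include the 2 genes with the least change in the knockout, B2M and TAP2, and the gene with the largest fold, HLA-F. The matches in the last 3, each in a stretch of 30 bases, are given here with the core in capitals. HLA-F lies at chr6:29723268-29723297 on the plus strand, TAP1 at chr6:32853816-32853845 and TAP2 at chr6:32838778-32838807 on the minus strand.
HLA-F: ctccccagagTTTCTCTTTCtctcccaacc
TAP1: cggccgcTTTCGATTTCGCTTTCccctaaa
TAP2: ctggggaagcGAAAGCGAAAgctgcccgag
The NF-kB form was matched in 1 of the 8 promoters at the first listed starts, that of HLA-B, against 5.78% of all. The CRE core letters were matched in 6 of 8 against 21.2% of all, and the Y box letters in 6 of 8 against 32% of all. The STAT form TTCNNNGAA was matched in 0 of these 8, against 6.57%. Promoters at other RefSeq starts were left out of these counts of the 8 genes but not of the shares of all promoters. Among them, the STAT form was matched in a promoter of TAP1 and in one of PSMB8, and the NF-kB form in a promoter of PSMB8. TAP1 and PSMB9 start 487 bases apart on opposite strands, so their 2 windows together span the sequence between the starts. The TAP1 matches of the ISRE core lie in that sequence but outside the PSMB9 window, so they were not counted for PSMB9.

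The libraries held 45865079 to 63276484 estimated counts each. IMPDH2, the targeted gene, had 318 to 319 CPM (counts relative to the library total, scaled by TMM, a correction for library composition) in WT and 41.2 to 42.3 in KO, a fold change of -2.94 on the log2 scale. It stood at 22.0 to 22.2 CPM in KO with guanosine, 522 to 543 with IMPDH2, 283 to 305 with the nuclear form and 371 to 395 with the cytosolic form, so that RNA from all 3 rescue constructs was counted under this symbol. All 7 marker genes of this line, which include VIM and CD44, were above 1 CPM in every group. Their summed level was highest in WT (7485 to 7775 CPM) and lowest in KO (5061 to 5399 CPM). The 6 blood cell markers, for cells rich in class I, summed to 4.60 to 5.52 CPM in WT and to 0.920 to 2.07 CPM in the other 5 groups. Endothelial markers (10.4 to 12.3 CPM in WT and 3.11 to 5.54 elsewhere) and fibroblast markers (11.7 to 13.6 CPM in WT and 4.02 to 7.97 elsewhere) shared that order. In each of these 2 lists, 2 of the 3 markers were under 1 CPM in every group. Their sums were thus mostly that of 1 gene, with means of 11.1 and 12.2 CPM in WT. Of the 6 blood cell markers, 4 were under 1 CPM in WT and 5 or 6 in the other groups. All 3 sums were thus highest in WT, where most of the 9 genes were lowest, and their part in the results was not tested. TMM scaling moved every KO against WT value by 0.161 on the log2 scale relative to scaling by library totals, so that without TMM all 9 values were higher and HLA-B, for example, was at 1.69. In bulk RNA, fewer cells carrying a transcript and less of it per cell cannot be told apart.

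The knockout carried more RNA of 7 of the 9 genes than the wild type. The RNAs of HLA-F, HLA-B and PSMB9 were more than doubled, those of HLA-C, TAP1 and PSMB8 rose by 1.53 to 1.79 times, and HLA-E rose by 1.28 times. B2M did not pass the test, and TAP2 was slightly lower. In the edgeR quasi-likelihood test across all genes, with Benjamini-Hochberg adjustment and a threshold of 0.05, 8 of the 9 genes were called, where 72.7% of all genes tested were called in this comparison. By direction, 7 of the 9 were higher, against 35.9% of all genes, and 1 was lower, against 36.8%. The median log2 fold change of the 9 was 0.62, and that of all genes tested was 0.01. Lack of overlap between groups, given below for single genes, was found in this comparison for 8 of the 9. It was also found for 16 of 18 other proteasome genes and 12 of 15 genes for factors that act on class I promoters. In the 4 comparisons with KO, it was found for 12 to 15 of those 18. It is therefore a description and not support in all of these comparisons. The plot of levels by library shows the 9 genes in the 6 groups.

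**Figure D1:**
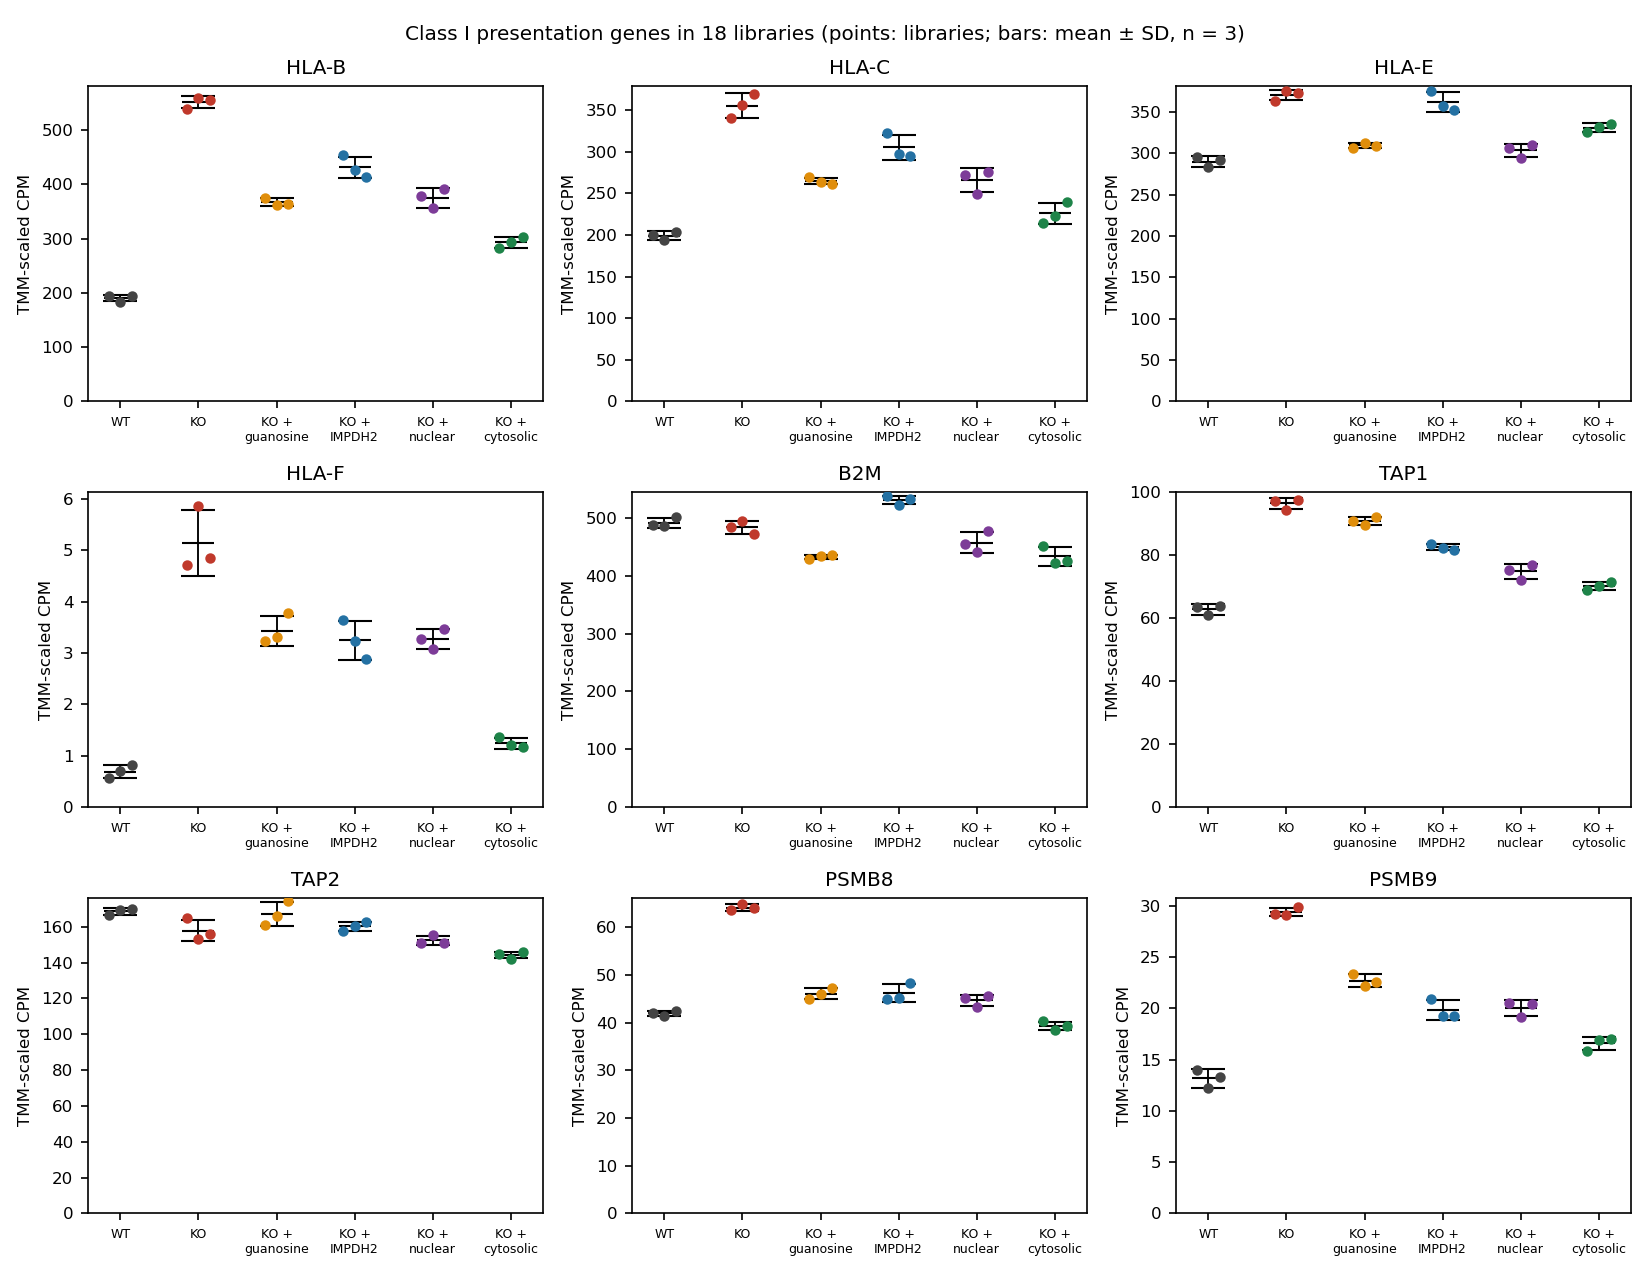
Each panel shows 1 gene, with TMM-scaled CPM on the vertical axis from 0, 1 point for each of the 18 libraries, and the mean and SD of each group of 3 as bars. In HLA-B the KO libraries sit between 539.7 and 560.0 CPM and the WT libraries between 184 and 195, while in B2M the 6 groups lie between 423 and 537.

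Among the heavy chains, HLA-B is a classical class I gene that presents peptides to CD8+ T cells. It stood at 194, 184 and 195 CPM in the 3 WT libraries and at 539.7, 560.0 and 556 CPM in the 3 KO libraries. The groups did not overlap, and the difference was 1.53 ± 0.04 on the log2 scale (SE; adjusted p = 2.11e-16). HLA-C, the other classical gene among the 9 and a main ligand of killer-cell receptors, stood at 200.1, 193 and 204 CPM in WT and at 340.3, 356 and 369.8 CPM in KO. Every KO library was above every WT library, with a log2 fold change of 0.84 ± 0.05 (adjusted p = 9.35e-12).

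HLA-E presents a narrow set of peptides, many of them from the leader sequences of other class I chains, to the NKG2A receptor. Its level was 296, 283 and 291 CPM in WT and 364, 375 and 373 CPM in KO, which gave a log2 fold change of 0.35 ± 0.03 (adjusted p = 9.20e-10). This was the smallest rise among the 4 heavy chains, although the groups did not overlap. HLA-F, a nonclassical heavy chain kept largely inside the cell, was the rarest of the 9 RNAs, with 30 to 41 estimated counts per WT library and 262 to 320 per KO library. Its level was 0.564, 0.699 and 0.820 CPM in WT and 4.71, 5.86 and 4.84 CPM in KO, a log2 fold change of 2.89 ± 0.14 (adjusted p = 2.09e-12). It had the largest fold of the 9 and the least certain one, because it rests on the fewest counts.

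B2M, the light chain that all class I molecules share, did not follow the heavy chains. It stood at 487, 487 and 502 CPM in WT and at 484, 495 and 473 CPM in KO. The groups overlapped, and the log2 difference of -0.02 ± 0.03 did not pass the test (adjusted p = 0.484). Scaled by library totals, B2M was 0.14 higher in KO on the log2 scale (adjusted p = 0.000248), so no direction is given for it in this comparison.

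The subunits of the peptide transporter parted. TAP1 stood at 63.6, 61.0 and 63.9 CPM in WT and at 97.4, 94.4 and 97.7 CPM in KO, and rose by 0.62 ± 0.03 on the log2 scale (adjusted p = 4.48e-13). TAP2 stood at 167, 169 and 170.1 CPM in WT and at 165, 153 and 156 CPM in KO. The TAP2 groups came close to each other without overlapping, and its log2 difference of -0.10 ± 0.03 passed the test (adjusted p = 0.00790). That call was lost, at -0.03, when only protein-coding transcripts were summed, and the value turned to 0.07 when library totals replaced TMM. It was also lost at -0.07 without WT replicate 3 (adjusted p = 0.0777) and without KO replicate 2 (adjusted p = 0.0505), out of 18 fits that each left out 1 library.

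Both immunoproteasome subunits rose. PSMB8 stood at 42.1, 41.4 and 42.4 CPM in WT and at 63.6, 64.9 and 64.1 CPM in KO, a log2 fold change of 0.61 ± 0.03 (adjusted p = 4.31e-12). PSMB9 stood at 14.02, 12.2 and 13.3 CPM in WT and at 29.2, 29.1 and 29.9 CPM in KO, a log2 fold change of 1.16 ± 0.05 (adjusted p = 3.18e-13). Neither gene's groups overlapped, and the 2 subunits differed in size of change.

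Most of the 9 RNAs were lower in the knockout given guanosine or a form of IMPDH2 than in the knockout alone. HLA-B, HLA-C, HLA-F, TAP1 and PSMB9 were called higher than in the wild type in all 4 treated groups. Of these calls, that of HLA-C with the nuclear form was lost with protein-coding transcripts only (0.17, adjusted p = 0.165), and that of HLA-F with the cytosolic form was lost with an offset for transcript length (0.23, adjusted p = 0.581). The group with the cytosolic form had the lowest mean of the 4 in 7 of the 9 genes, and HLA-E and B2M were the exceptions. These 4 comparisons share the same 3 KO libraries, so their values are given side by side and not as independent support. With guanosine, 8 of the 9 genes were lower than in KO and 1, TAP2, was higher (56.5% of all genes were called, 27.3% higher and 29.2% lower). With IMPDH2, 6 were lower and 1, B2M, was higher (50.8% of all genes called, 25.7% higher and 25.1% lower). With the nuclear form, 8 were lower (53% of all genes called, 26.1% higher and 26.9% lower), and with the cytosolic form, 9 were lower (50.6% called, 24.6% higher and 26% lower). The median log2 change of the 9 was -0.37, -0.22, -0.42 and -0.65 in that order, while the median over all genes tested lay at -0.02 in each of the 4. The plot of fold changes against KO sets the values of each gene next to its rise in KO.

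**Figure D2:**
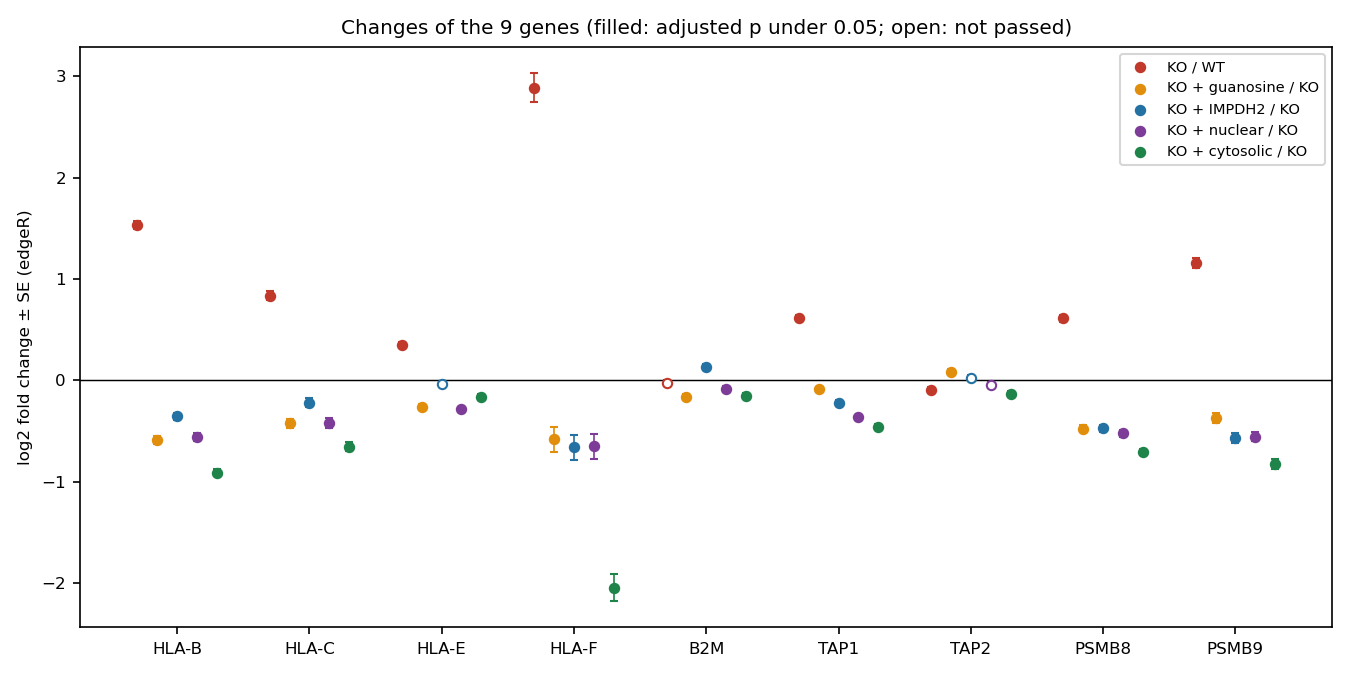
The vertical axis gives the edgeR log2 fold change with its SE for the KO against WT and for each of the 4 treatments against KO, and open points mark values that did not pass an adjusted p of 0.05. HLA-F in KO with cytosolic IMPDH2 is the lowest point, at -2.04, and the B2M points lie between -0.16 and 0.13.

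HLA-B fell in all 4 groups. It stood at 376, 362 and 364 CPM with guanosine, at 454, 426 and 414 CPM with IMPDH2, at 379, 356 and 391 CPM with the nuclear form and at 284, 294 and 304 CPM with the cytosolic form. No library of these groups overlapped with KO or with WT. The log2 changes against KO were -0.59 ± 0.04, -0.36 ± 0.04, -0.56 ± 0.04 and -0.91 ± 0.04 (adjusted p from 2.23e-12 to 3.37e-07). In mean CPM, these removed 51.1%, 33.4%, 48.9% and 71.5% of the KO minus WT difference.

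HLA-C followed with smaller changes. It stood at 269, 264 and 262 CPM with guanosine, 322, 298 and 295 CPM with IMPDH2, 272, 249 and 276 CPM with the nuclear form and 214, 223 and 239.9 CPM with the cytosolic form. Every one of these libraries was below the KO libraries and above the WT libraries. The log2 changes against KO were -0.42, -0.22, -0.42 and -0.65, each with an SE of 0.05 (adjusted p from 1.59e-09 to 0.000507). Summed over protein-coding transcripts only, the change with guanosine was -0.10 (adjusted p = 0.433) and that with IMPDH2 was -0.02 (adjusted p = 0.915), so the 2 HLA-C calls rest on transcripts without a protein-coding label.

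HLA-E did not share this order. It stood at 307, 313 and 309 CPM with guanosine, 375, 357 and 352 CPM with IMPDH2, 307, 295 and 309.7 CPM with the nuclear form and 325, 332 and 335 CPM with the cytosolic form. The IMPDH2 group overlapped with KO, and its log2 difference of -0.04 ± 0.03 did not pass the test (adjusted p = 0.280). The other 3 groups fell by 0.26, 0.29 and 0.16 on the log2 scale in the order guanosine, nuclear and cytosolic, and for HLA-E alone among the 7 genes that rose in KO the cytosolic form was above the nuclear form.

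HLA-F stood at 3.23, 3.30 and 3.77 CPM with guanosine, 3.64, 3.23 and 2.88 CPM with IMPDH2, 3.28, 3.07 and 3.47 CPM with the nuclear form and 1.36, 1.20 and 1.16 CPM with the cytosolic form. The first 3 groups sit together between KO and WT, and the cytosolic group sits just above WT. Their log2 changes against KO were -0.58, -0.66, -0.65 and -2.04, with SEs of 0.12 to 0.13 (adjusted p from 6.13e-10 to 0.000527). With an offset for average transcript length, the guanosine change was -0.48 (adjusted p = 0.212) and the nuclear change -0.74 (adjusted p = 0.0625), and with protein-coding transcripts only the IMPDH2 change was -0.47 (adjusted p = 0.190) and the nuclear change -0.57 (adjusted p = 0.105).

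B2M moved little and in both directions. It stood at 429, 433 and 436 CPM with guanosine, 537, 523 and 533 CPM with IMPDH2, 455, 440.2 and 477 CPM with the nuclear form and 452, 423 and 426 CPM with the cytosolic form. The guanosine and cytosolic libraries all lay below the KO libraries, the IMPDH2 libraries all lay above them, and the nuclear libraries overlapped with them. The log2 changes were -0.16, 0.13, -0.08 and -0.16, each with an SE of 0.03 (adjusted p = 0.000157, 0.000963, 0.0290 and 0.000224). The nuclear value was not called without the filter on low counts (-0.06, adjusted p = 0.192), nor without KO replicate 1 or 2 or nuclear replicate 1 or 2 (-0.08 to -0.06). The IMPDH2 value was not called when library totals replaced TMM (0.05, adjusted p = 0.114).

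TAP1 stood at 90.8, 89.6 and 92.1 CPM with guanosine, 83.7, 82.4 and 81.8 CPM with IMPDH2, 75.5, 72.2 and 77.0 CPM with the nuclear form and 69.1, 70.2 and 71.5 CPM with the cytosolic form. It is the 1 gene of the 9 in which all 5 pairs of groups next to each other in the order of levels differed. Its log2 changes against KO were -0.09, -0.22, -0.37 and -0.46, each with an SE of 0.03 (adjusted p = 0.0101, 1.66e-06, 2.95e-09 and 2.03e-10). Guanosine thus removed 16.8% of the TAP1 difference, where it removed 81.3% for PSMB8. The TAP1 change with guanosine turned to 0.03 when protein-coding transcripts alone were summed, and it was not called without KO replicate 1 (-0.07, adjusted p = 0.0594) or without guanosine replicate 2 (-0.08, adjusted p = 0.0505).

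TAP2 stood at 161, 166 and 175 CPM with guanosine, 158, 161 and 163 CPM with IMPDH2, 151, 155 and 151 CPM with the nuclear form and 145, 142 and 146 CPM with the cytosolic form. The cytosolic libraries were the lowest of all 18, and the guanosine libraries overlapped with both KO and WT. The log2 changes against KO were 0.08, 0.02, -0.05 and -0.13, each with an SE of 0.03, and the first and the last passed the test (adjusted p = 0.0238 and 0.00131). The first was not called with protein-coding transcripts only (0.04, adjusted p = 0.311) or with library totals (0.02, adjusted p = 0.652), nor without KO replicate 2 or 3 or guanosine replicate 3 (0.05 to 0.07), and the last was not called with the length offset (-0.03, adjusted p = 0.701).

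PSMB8 stood at 45.1, 46.1 and 47.2 CPM with guanosine, 44.9, 45.2 and 48.4 CPM with IMPDH2, 45.1, 43.3 and 45.6 CPM with the nuclear form and 40.3, 38.4 and 39.3 CPM with the cytosolic form. All 12 values were below the KO libraries, and the cytosolic values were also below the WT libraries. The log2 changes against KO were -0.48, -0.47, -0.52 and -0.71, each with an SE of 0.03 (adjusted p from 5.44e-12 to 9.33e-10).

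PSMB9 stood at 23.4, 22.2 and 22.6 CPM with guanosine, 20.9, 19.3 and 19.3 CPM with IMPDH2, 20.5, 19.2 and 20.5 CPM with the nuclear form and 15.8, 16.9 and 17.1 CPM with the cytosolic form. Each group lay between KO and WT without overlapping either. The log2 changes against KO were -0.37, -0.57, -0.55 and -0.82, each with an SE of 0.05 (adjusted p from 2.01e-10 to 2.78e-06).

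The nuclear and the cytosolic form of IMPDH2 were compared directly because the series asks about nuclear IMPDH2. HLA-B, HLA-C, HLA-F, TAP1, PSMB8 and PSMB9 were higher with the nuclear form, and HLA-E was higher with the cytosolic form. The counts were 6 higher and 1 lower of 9, where 23.9% of all genes were called, 13.4% higher and 10.5% lower. The median log2 difference of the 9 was 0.18, and that of all genes was 0.00. HLA-F differed most, by 1.39 ± 0.13 on the log2 scale (adjusted p = 6.79e-07), and with the offset for average transcript length the value was 0.95 (adjusted p = 0.0702). HLA-B differed by 0.35 ± 0.04 (adjusted p = 2.57e-06), PSMB9 by 0.27 ± 0.05 (adjusted p = 0.000618), HLA-C by 0.24 ± 0.05 (adjusted p = 0.000992) and PSMB8 by 0.18 ± 0.03 (adjusted p = 0.000400). These are differences of 1.14 to 1.28 times, and the 2 groups did not overlap in any of these genes. Lack of overlap was also found here for 9 of 18 other proteasome genes and 9 of 15 genes for factors that act on class I promoters. It is therefore a description and not support. The HLA-C difference turned to -0.08 when only protein-coding transcripts were summed. TAP1 differed by 0.09 ± 0.03 (adjusted p = 0.0213), a call that was lost without nuclear replicate 1 or 3 or cytosolic replicate 1 or 2 (0.07 to 0.09) and in 4 other settings, such as the length offset (0.06, adjusted p = 0.286). HLA-E differed by -0.12 ± 0.03 (adjusted p = 0.00219), which became an adjusted p of 0.0587 with the length offset. B2M (0.08, adjusted p = 0.0723) and TAP2 (0.08, adjusted p = 0.0599) did not pass, although B2M did without nuclear replicate 2 (0.10) or cytosolic replicate 1 (0.11), and TAP2 without guanosine replicate 1 or 3 (0.08). IMPDH2 RNA itself was lower with the nuclear than with the cytosolic form, by -0.35 on the log2 scale, and its part in these differences was not tested.

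The 4 treated groups were also set against the wild type, and these comparisons share the WT libraries. With guanosine, 7 of the 9 were higher and 1 lower (63.9% of all genes called, 31.1% higher and 32.9% lower). With IMPDH2, 8 were higher and 1 lower (64.5% called, 31.1% higher and 33.4% lower), with the nuclear form 7 were higher and 2 lower (65% called, 31.5% higher and 33.6% lower), and with the cytosolic form 6 were higher and 3 lower (67.6% called, 32.9% higher and 34.7% lower). HLA-B remained above WT by 0.94, 1.18, 0.98 and 0.62 on the log2 scale in that order, and PSMB9 by 0.79, 0.59, 0.60 and 0.33. HLA-F stood 2.30, 2.23 and 2.24 above WT in the first 3 groups and 0.84 above it with the cytosolic form. PSMB8 was 0.14, 0.14 and 0.09 above WT in the first 3 groups, and with the cytosolic form it was -0.10 against WT (adjusted p = 0.0159), a call lost without WT replicate 1 or 3, KO replicate 1, or cytosolic replicate 2 or 3 (-0.08 to -0.06). The nuclear PSMB8 value was not called without WT replicate 2 (0.08, adjusted p = 0.0769). TAP2 with guanosine did not pass against WT (-0.01, adjusted p = 0.741, and 0.08 with adjusted p = 0.0245 under library totals), and with IMPDH2 it was -0.07 (adjusted p = 0.0406), a call lost in 16 of the 18 fits without 1 library (-0.07 to -0.04). Against WT, B2M with the nuclear form was -0.11 and was not called without WT replicate 3 (-0.08) or nuclear replicate 2 (-0.06), and HLA-E with the nuclear form was 0.07 and was not called without WT replicate 2 (0.05) or nuclear replicate 3 (0.07).

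The order of the 6 groups was the same at both ends for HLA-B, HLA-C, HLA-F, TAP1 and PSMB9, with WT lowest, the cytosolic form next and KO highest. Of the 45 pairs of groups next to each other in the orders of the 9 genes, 28 differed. Among the 5 pairs of treated groups other than nuclear with cytosolic, the share of all genes called was 37.6% between IMPDH2 and guanosine, 37.3% between nuclear and guanosine, 43.1% between cytosolic and guanosine, 12% between nuclear and IMPDH2, and 24.2% between cytosolic and IMPDH2. For HLA-B and HLA-C the guanosine and nuclear groups did not differ (adjusted p = 0.573 and 0.961), and all other steps did. For HLA-F the IMPDH2, nuclear and guanosine groups did not differ from their neighbours, with adjusted p of 0.999 and 0.714. PSMB9 lacked a difference only between the IMPDH2 and nuclear groups (adjusted p = 0.907). PSMB8 had the cytosolic form lowest, and the nuclear, guanosine and IMPDH2 groups were not told apart (adjusted p = 0.287 and 0.971). HLA-E had WT lowest, then the nuclear, guanosine, cytosolic, IMPDH2 and KO groups, with no difference between the nuclear and guanosine groups or between the IMPDH2 and KO groups. B2M differed in 2 of its 5 steps and TAP2 in 0 of 5.

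Levels between genes were compared per length, in TPM, which relates the counts to transcript length. B2M was far the most abundant of the 9, at 1000 to 1418 TPM in the 18 libraries, and HLA-F the rarest, at 1.09 to 7.50 TPM. In WT, HLA-C (140 ± 2.9 TPM), HLA-B (126 ± 2.3) and HLA-E (123 ± 2.1) were close to each other, and in KO they were spread out, at 254 ± 9.6, 376 ± 14.9 and 166 ± 6.8 TPM (SD, n = 3). The 4 heavy chains summed to 0.300 ± 0.011 of B2M in WT and to 0.625 ± 0.037 in KO, and to 0.453 to 0.517 in the 4 treated groups. TAP1 stood at 0.664 ± 0.005 of TAP2 in WT and at 1.17 ± 0.01 in KO, so TAP1 was the lower of the 2 in WT and the higher in KO. The treated groups lay between, from 0.887 to 1.02.

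PSMB8 was 0.207 ± 0.002 of its constitutive counterpart PSMB5 in WT, 0.316 ± 0.007 in KO and 0.153 ± 0.006 with the cytosolic form, where PSMB5 itself was at its highest mean, 203 CPM. PSMB9 was 0.0980 to 0.102 of PSMB6 in the WT libraries, 0.233 ± 0.007 in KO and 0.230 ± 0.023 with guanosine, so for this pair guanosine left the ratio where it was in KO, while PSMB9 and PSMB6 were both lower than in KO (29.4 to 22.7 CPM and 134 to 109 CPM). HLA-B was 1.02 ± 0.01 of HLA-E in WT and 2.26 ± 0.03 in KO. These ratios are descriptions of the RNA, and no test was run on them.

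**Figure D3:**
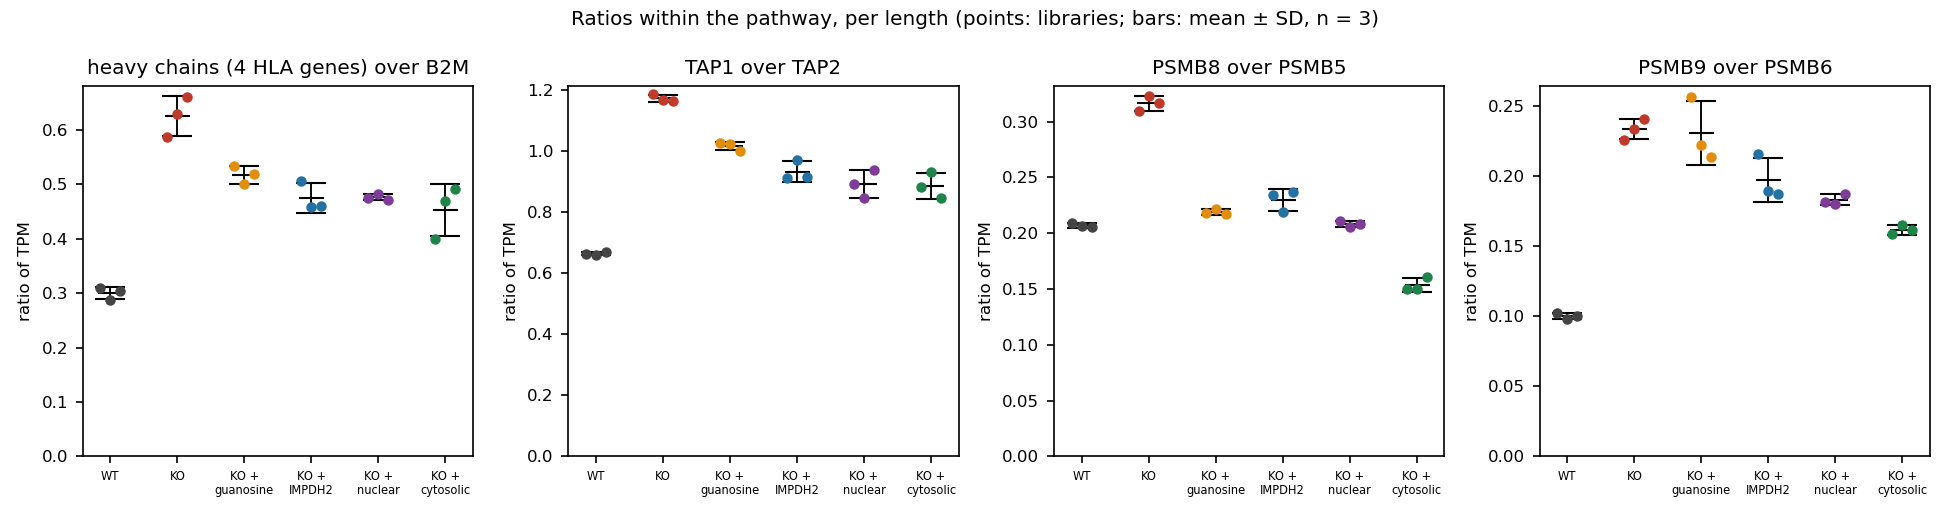
The 4 panels give ratios of TPM from 0 for 4 pairs of partners, with 1 point for each of the 18 libraries and the mean and SD of each group of 3. The KO libraries are the highest group in the panels of heavy chains over B2M (0.586 to 0.660), TAP1 over TAP2 (1.17 to 1.19) and PSMB8 over PSMB5 (0.310 to 0.323), while in PSMB9 over PSMB6 the guanosine group reaches 0.256.

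Of the 9 genes, 8 lie on chromosome 6 and B2M lies on chromosome 15. The 8 have their starts within 3.12 Mb, from HLA-F (chr6:29722775-29738528, plus strand) to TAP1 (chr6:32845209-32853978, minus strand), in GENCODE release 29 on GRCh38. By lowest coordinate, TAP2 (chr6:32821833-32838780), PSMB8, PSMB9 (chr6:32844136-32859585) and TAP1 follow each other there. The annotated span of PSMB9 on the plus strand overlaps PSMB8 and TAP1 on the minus strand. That of HLA-B (chr6:31269491-31357188) overlaps HLA-C (chr6:31268749-31272130), both on the minus strand. The span also holds 85 other protein-coding genes that were tested and are in none of the gene lists used here. Of these 85, 54 were higher in KO than in WT and 15 were lower (35.9% and 36.8% over all genes), and their median log2 fold change was 0.36, where the median of all genes was 0.01 and that of the 8 was 0.73. HLA-E, at 0.35, was near the median of its neighbours. Without any gene named HLA, 80 neighbours were left, with a median of 0.34. In KO against WT, genes across this span mostly rose, as did all of the 8 except TAP2. The part of this wider rise in the changes of the 8 was not tested. Against KO, the 85 had medians of -0.06, -0.19, -0.15 and -0.11 with guanosine, IMPDH2, the nuclear and the cytosolic form. Those of the 8 were -0.40, -0.29, -0.47 and -0.68. Against WT, in the same order, the 85 had medians of 0.31, 0.24, 0.26 and 0.27, and the 8 had 0.47, 0.49, 0.33 and 0.19. In the nuclear against cytosolic comparison, the 85 had a median of -0.02 with 5 higher and 15 lower (13.4% and 10.5% over all genes), where the 8 had a median of 0.21. The plot along the chromosome 6 span sets the 8 genes beside the neighbours.

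**Figure D4:**
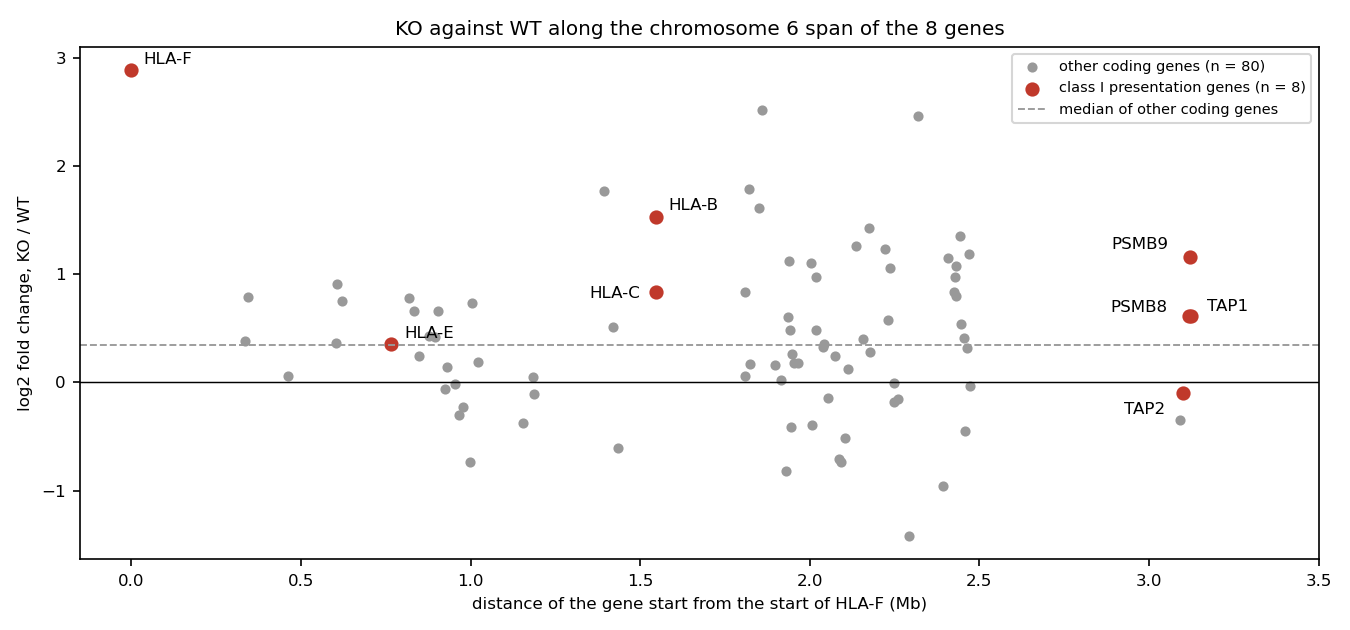
The horizontal axis gives the distance of each gene start from that of HLA-F in Mb and the vertical axis the log2 fold change of KO over WT, with the 8 genes in red, the 80 other coding genes not named HLA in grey and their median of 0.34 as a dashed line. HLA-F, HLA-B, HLA-C, PSMB9, PSMB8 and TAP1 lie above that line, HLA-E on it and TAP2 below it.

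The genes that work beside the 9 are given by list, and their counts in KO against WT stand beside shares of 35.9% higher and 36.8% lower over all genes tested. Of the 7 genes for peptide loading and trimming, 2 were higher and 4 lower, with a median of -0.25. Calreticulin (CALR), a chaperone of the loading complex, rose by 0.40, from 1464 ± 14.7 to 1925 ± 33.0 CPM. Tapasin (TAPBP), which bridges TAP and the heavy chain, fell by 0.36, from 227 ± 10.5 to 177 ± 8.65 CPM, and ERAP2, which trims peptides in the endoplasmic reticulum, fell by 0.66, from 13.1 ± 0.976 to 8.32 ± 0.857 CPM (adjusted p = 1.09e-11, 3.03e-08 and 7.92e-08).

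Of 18 other proteasome genes, 3 were higher in KO and 13 lower, with a median of -0.30 (35.9% and 36.8% over all genes). PSMB2, PSMA5 and PSMA1, core subunits, fell by 1.24, 0.83 and 0.67 on the log2 scale. PSMB10, the remaining catalytic subunit of the immunoproteasome, fell by 0.65, from 15.1 ± 0.551 to 9.59 ± 0.483 CPM (adjusted p = 4.02e-07), and was lower still in all 4 treated groups. PSMB5 and PSMB6, which PSMB8 and PSMB9 replace, did not pass the test, at 0.01 and -0.05. PSME1 and PSME2, subunits of the PA28 activator, were 0.08 and 0.32 higher.

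Of 15 genes for factors that act on class I promoters, 6 were higher in KO and 6 lower, with a median of 0.04, which is near the 35.9% and 36.8% over all genes. IRF9, the DNA-binding subunit of the interferon-stimulated factor ISGF3, rose by 1.22, from 18.9 ± 0.037 to 44.2 ± 0.936 CPM, and its partner STAT2 rose by 1.11. In the 4 treated groups IRF9 fell against KO, by 0.73, 0.55, 0.67 and 0.54, to means of 26.7 to 30.3 CPM, all above WT. NFYA rose by 0.79 and NFYC, another subunit of the same CCAAT-binding factor, fell by 0.97. NLRC5, the transactivator of class I genes, was 0.25 lower in KO (adjusted p = 0.00182), and RFX5, a DNA-binding partner it needs, was 0.81 lower. RFXANK, another RFX subunit, was higher, from 31.5 ± 1.23 to 43.5 ± 1.09 CPM. RFXAP, a further subunit, was at 2.90 ± 0.215 CPM in WT and 3.13 ± 0.497 CPM in KO, and its libraries overlapped. These genes were named to complete their complex. NLRC5 was 0.41 ± 0.06 higher with the nuclear than with the cytosolic form (adjusted p = 0.000121), with 17.4 to 18.9 against 12.9 to 14.3 CPM. IRF1, an interferon-induced activator of these genes that was picked out after its values were seen, was 0.87 lower in KO.

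Of 14 interferon, receptor and receptor kinase genes, 9 were tested, and in KO 3 were higher and 5 lower (35.9% and 36.8% over all genes). The 5 interferon genes IFNB1, IFNG, IFNL1, IFNL2 and IFNL3 were not tested for want of counts, with at most 2 counts in any library, and IFNB1, IFNG and IFNL3 were at 0 in all 18. At the totals of these libraries this says that their RNA was not detectable, not that it was absent. JAK1 and TYK2, kinases bound to the receptors, fell by 0.80 and 0.43, and IFNGR1, the ligand-binding chain of the interferon gamma receptor, fell by 0.61.

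Across the 18 libraries, the average of the 9 genes on a standardised log2 CPM scale was followed most closely, among coding genes outside these lists, by BIRC3 (Pearson r = 0.952), MFGE8 (0.943), TMC5 (0.939), CFB (0.938), UBE2L6 (0.935) and DYRK1B (0.933). These are descriptions over libraries that share their 6 groups. BIRC3, an inhibitor of apoptosis and a known NF-kB target, had a mean of 43.4 CPM in WT, 99.8 in KO and 56.0 with the cytosolic form. UBE2L6, the enzyme that conjugates the interferon-induced modifier ISG15, had 43.3, 77.6 and 52.4 CPM in the same groups. CFB, complement factor B, lies in the same chromosome 6 span, and had 14.2, 33.4 and 14.0 CPM. Of the 9 themselves, HLA-C followed the average most closely (r = 0.970, a value that includes its own part in the average), and B2M and TAP2 least, at 0.368 and 0.141.

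The estimates divide each gene's reads over its transcripts, and this bears on several of the genes. In HLA-C, a transcript with the biotype of nonsense-mediated decay, HLA-C-202, took 58.8% of the counts on average (48.1% to 66.1% in single libraries), and the protein-coding HLA-C-201 took 29.7%. In TAP1, 40.6% lay on TAP1-206, whose coding sequence is not defined. In HLA-F, the protein-coding HLA-F-217 took 0% to 78.5% in single libraries, with means of 11.5% in WT and 57.3% in KO. Per length, HLA-F stood at 1.71 ± 0.56 TPM in WT and 6.50 ± 0.93 TPM in KO. In TAP2, the share of TAP2-207 ran from 19.3% to 50.4%. In HLA-B, 94.8% lay on the protein-coding HLA-B-249, and in B2M 78.3% lay on B2M-211. HLA genes resemble each other and vary between people, while the reference carries 1 sequence for each, so the division of reads between HLA-B, HLA-C, HLA-E and HLA-F is uncertain. Summed to 1 feature, the 4 left 6 features to test in place of 9, and 5 of the 6 were called in KO against WT. With the 4 kept apart, 72.7% of all genes were called in that comparison. The library kit marks the strand, but the use of strand in counting is not given in the sources used here, so reads of PSMB9 and of the overlapping genes on the other strand may be mixed.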

How the data were processed

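RNA-seq libraries were made from total RNA with a stranded mRNA kit, per the labels' protocols. Trim Galore 0.6.10, Salmon 1.10.0 and the build hg19 are named in the submitters' processing notes. The authors deposited estimated counts, effective lengths and TPM for 252048 transcripts in each of 18 libraries, and the same estimated counts in 1 table for the series (32.5% of values are not whole). The 2 sources differed by 0 for every gene, and 0 columns went unused. The deposited effective lengths, another deposited quantity, were used only for a length offset. The annotation release is not given in the sources used here, and the files hold no coordinates: positions are from GENCODE release 29 (GRCh38), matched by gene identifier (57804 of 62749 genes matched), and no coordinates were converted.

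Estimated counts were summed to genes and rounded. Library totals were 45865079 to 63276484 estimated counts, and intervals beyond the replicate spread were not computed. edgeR 4.0.16 (R 4.3.3) fitted 1 mean per group to all 18 libraries (filterByExpr, TMM, quasi-likelihood test, Benjamini-Hochberg adjustment over 19252 genes within each comparison). SEs are the log2 fold change over the square root of the F statistic. Lack of overlap between groups of 3 libraries is given as a description, and its share over all genes is not given here. The script was tested on simulated data. DESeq2 1.42.0 served as an alternative. Tables and plots were made with Python 3.11.15, pandas 2.3.3 and matplotlib 3.10.9. The 10 comparisons in the text are those of KO with WT, of each treated group with KO and with WT, and of the nuclear with the cytosolic form. All 15 pairs served for the order of levels.

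Alternatives were size factors of DESeq2, its own test, no filter, the length offset, protein-coding transcripts only, the 4 HLA genes summed, a minimum log2 fold change of 1, only the 6 libraries compared, the replicate number as a block, and each library left out. Library totals in place of TMM, and neighbours without genes named HLA, were added after seeing the data. All 9 genes are named. From each other list the text names the 3 genes with the smallest adjusted p in KO against WT, and those needed to complete a complex, except where it says otherwise. The 6 most alike coding genes have a mean log2 CPM of at least 1. The genes and lists were chosen with earlier results of these data known.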

Additional observations from a re-analysis of the deposited data

Results flagged for a closer look

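B2M and TAP2 moved in opposite directions under different treatments of the same knockout, each with a called change against KO on both sides and a called difference between the treatments. B2M was 0.13 above KO with IMPDH2 and 0.16 below it with guanosine, so that the direct difference of KO with IMPDH2 against KO with guanosine was 0.30 on the log2 scale (adjusted p = 4.39e-07, edgeR). B2M was also lower with the nuclear form than with IMPDH2, by -0.22 (adjusted p = 0.000118), and lower with the cytosolic form than with IMPDH2, by -0.29 (adjusted p = 1.42e-06). TAP2 was lower with the cytosolic form than with guanosine, by -0.21 (adjusted p = 1.47e-05), with 142 to 146 CPM against 161 to 175. With library totals in place of TMM, the higher values against KO were no longer called, for B2M with IMPDH2 at 0.05 (adjusted p = 0.114) and for TAP2 with guanosine at 0.02 (adjusted p = 0.652). With the length offset, TAP2 with the cytosolic form against KO was no longer called, at -0.03 (adjusted p = 0.701). All of the 4 direct differences are under 1.24 times in size.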

How the results depend on the processing

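Of the 90 values of the 9 genes in 10 comparisons, 88 kept their direction and their side of the threshold with the size factors of DESeq2, 89 in its own test, 84 without the filter on low counts, 76 with the length offset, 74 with protein-coding transcripts only, 85 with only the 6 libraries compared, 77 with library totals and 15 with a minimum log2 fold change of 1. The counts of genes called were within 1.5 times of those reported, apart from the following. With the 4 HLA genes summed, which leaves 6 features, 5 were called in KO against WT, in the nuclear form against KO, and in guanosine and IMPDH2 against WT, and 4 in nuclear against cytosolic. With the length offset, 4 were called in nuclear against cytosolic. Against a minimum log2 fold change of 1, 3 genes were called in KO against WT, 0, 0, 0 and 1 in guanosine, IMPDH2, nuclear and cytosolic against KO, 0 in nuclear against cytosolic, and 1, 2, 1 and 0 in the 4 treated groups against WT. These last counts fall because the test asks for a larger change. The shares of all genes called under each alternative are not given here, so these counts show only how far the calls depend on the setting.

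Leaving out each library in turn gave 7 to 8 genes called in KO against WT and 6 to 8 in nuclear against cytosolic. Against KO, the counts were 8 to 9, 7 to 7, 7 to 8 and 9 to 9 with guanosine, IMPDH2, nuclear and cytosolic. Against WT, they were 8 to 8, 8 to 9, 7 to 9 and 8 to 9 in the same order. The steps in the order of levels that differed were 25 to 30. The shares of all genes called in these fits are not given here. With no library left out, 72.7% of all genes were called in KO against WT and 23.9% in nuclear against cytosolic. That share was 50.6% to 56.5% against KO and 63.9% to 67.6% against WT. Steady counts are therefore a description and not support for the 9 genes as a set. The replicate block left all 90 values on their side, with 8 genes called in KO against WT and 28 steps differing, and same-numbered libraries did not deviate together (median r -0.0054 over 45 pairs), so the numbers were not taken as pairs.

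With protein-coding transcripts only, HLA-C in nuclear against cytosolic became -0.08, B2M in KO against WT 0.01, TAP1 in guanosine against KO 0.03 and TAP2 in IMPDH2 against KO -0.03. TAP2 in nuclear against KO became 0.02 with the length offset. TAP2 in guanosine against WT, -0.01, became 0.01 without the filter, with coding transcripts and in the fit of 6 libraries, 0.00 with the HLA genes summed, and -0.03 to 0.03 without single libraries. B2M in KO against WT was -0.04 to 0.01 without single libraries and reached 0.01 without WT replicate 3. With library totals, B2M in KO against WT became 0.14, and TAP2 became 0.07 in KO against WT, -0.06 in IMPDH2 against KO, 0.08 in guanosine against WT and 0.01 in IMPDH2 against WT. The cause was not tested. HLA-F, with 30 to 320 counts per library, is limited by depth.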

Other observations

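The class II pathway presents peptides taken up from outside the cell. Of 11 class II genes tested, 7 were higher in KO than in WT and 1 lower (35.9% and 36.8% of all genes), with a median log2 fold change of 0.97. HLA-DRA, the alpha chain of HLA-DR, stood at 7.46 to 8.48 CPM in WT and at 62.4 to 64.3 CPM in KO, a rise of 7.98 times (adjusted p = 1.05e-17). HLA-DPA1 rose by 2.20, from 5.32 ± 0.321 to 24.5 ± 1.06 CPM, and HLA-DPB1, its partner, rose by 2.57. CIITA, the transactivator of class II genes, which like CD74 was picked out after its values were seen, was lower in KO, by -0.65 on the log2 scale (16.3 ± 1.73 against 10.4 ± 0.048 CPM). Against KO, HLA-DRA rose further, to 112 ± 2.05 CPM with IMPDH2, 119.6 ± 9.27 CPM with the nuclear form and 94.8 ± 4.59 CPM with the cytosolic form. HLA-DPB1 was at 10.1 ± 0.606 CPM with IMPDH2 and 11.7 ± 0.835 CPM with the nuclear form, and with the cytosolic form it fell against KO, from 5.77 ± 0.532 to 4.79 ± 0.326 CPM (adjusted p = 0.0234). With the cytosolic form, 4 of the 11 were higher than in KO and 4 lower, with a median of -0.01 (24.6% and 26% of all genes). CD74, the invariant chain that escorts class II molecules, did not pass the test in KO (0.04, adjusted p = 0.305) and stood at 179.8 ± 9.32 CPM with IMPDH2 and at 187 ± 7.66 CPM with the nuclear form, against 138 ± 2.87 CPM with the cytosolic form. With the nuclear against the cytosolic form, 9 of the 11 were higher and 0 lower (13.4% and 10.5% of all genes), with a median of 0.44, and HLA-DPA1 differed by 1.05 (adjusted p = 4.06e-11).

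Of 14 class I-like molecules, 8 were higher in KO than in WT and 6 lower (35.9% and 36.8% of all genes), with a median of 0.29. FCGRT, the heavy chain of the neonatal Fc receptor, which also pairs with B2M, rose by 2.78, from 5.29 ± 0.242 to 36.4 ± 1.27 CPM, and stood at 20.2 to 23.9 CPM on average in the 4 treated groups. PROCR, the endothelial protein C receptor, rose by 0.74, and MICA, a stress ligand of the NKG2D receptor, fell by 0.62.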
